A study of Mus musculus with 8 samples.

Results

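The genes described here are 6 markers of rare, non-canonical olfactory sensory neurons of the mouse: Gucy2d, Pde2a, Cnga3 and Car2 of guanylyl cyclase D neurons, and Gucy1b2 and Trpc2 of type B cells. They were chosen by name among the 21765 gene rows of a table of polysome-associated RNA from the main olfactory epithelium. Of the 6, 5 had a row (all but Trpc2, which is not analysed here), and 4 of these had a mean of at least 1 TPM (transcripts per 1000000) and were among the 16097 genes tested.

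RNA was sequenced from 2 pools of sucrose gradient fractions, lighter (early) polysomes with fewer ribosomes per transcript and heavier (late) polysomes with more. Wild-type (WT) mice carried Mex3a flox/flox or Mex3a flox/+, and conditional knockout (cKO) mice carried Mex3a flox/flox with a Cre transgene whose driver is not reported here. Mex3a encodes an RNA-binding protein. Tissue of both genotypes received 100 µg/mL cycloheximide when it was dissected, and ages are not given in the sources used here. Genotype and fraction gave 4 groups of 2 libraries, and an early and a late library of 1 genotype and number bear 1 lysate name, hence 2 WT and 2 cKO lysates. Nothing in the labels says whether lysates came from separate animals or pools, so p-values measure only the spread between these samples.

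Most olfactory neurons detect odorants through G protein-coupled receptors, type III adenylyl cyclase and a cAMP-gated channel. Guanylyl cyclase D neurons instead use cGMP: the receptor cyclase GC-D (Gucy2d) makes it, the channel subunit CNGA3 (Cnga3) opens with it, and the cGMP-stimulated phosphodiesterase PDE2A (Pde2a) degrades it. Carbonic anhydrase II (Car2) lets these cells respond to carbon dioxide through bicarbonate, and their axons end in the necklace glomeruli of the olfactory bulb. Type B cells are another small population, marked by the soluble guanylyl cyclase subunit gene Gucy1b2 and the ion channel gene Trpc2, and are known for responding to low oxygen.

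Polysome position depends on initiation and on the length of the reading frame, so the annotated start codons of the 5 genes with a row are shown, read from GENCODE transcripts on GRCm38, 5′ to 3′, with the ATG in capitals.
Gucy2d: cagcccatcATGgca
Pde2a: tgaggagtgATGggg
Cnga3: tgtgcagagATGgca
Car2: ggcgtgaccATGtcc
Gucy1b2: attgaaaggATGgtg
All 5 have a purine (A or G) at the third base before the ATG, as 85.6% of 14319 tested genes with such a context have. A G follows the ATG in each of them but Car2, against 52.3% of these genes. The annotated 5′ UTR holds no other ATG in Gucy2d and Car2, 2 in Gucy1b2, and 3 each in Pde2a and Cnga3, while 55.2% of the genes have at least 1.

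On GRCm38, Gucy2d spans bases 98440416 to 98477479 of chromosome 7 (plus strand), with 19 exons in the transcript used. Pde2a lies on the same strand of chromosome 7 at 101421691 to 101512827, with 32 exons, almost all of it within the span of the overlapping model Gm45837, whose reads could not be separated from it and which has no row here. Cnga3 lies on chromosome 1 at 37214434 to 37263384 (plus strand, 6 exons), and Car2 on chromosome 3 at 14886273 to 14900770 (plus strand, 7 exons). Gucy1b2 lies on chromosome 14 at 62392676 to 62456289 on the minus strand, with 17 exons and no overlapping gene model. Trpc2 is annotated on chromosome 7 at 102083116 to 102096396. Its span overlaps that of Xndc1, which did have a row, at 2.16 to 4.72 scaled TPM, and no part of that value can be assigned to Trpc2.

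Values below are scaled TPM, that is, TPM divided by a factor per library (0.94 to 1.072) that aligns the libraries' median gene. TPM is corrected for gene length and gives a gene's share of the RNA in a pool, so a late-against-early difference compares shares of the late and the early pool. Inferred depth was 7776792 to 12771079 reads per library, lowest in cKO late replicate 2. Markers of mature olfactory neurons (10 genes, among them Omp) summed to 7269 to 13140 scaled TPM per library. Vomeronasal receptor genes, whose neurons also express Trpc2, summed to 6.45 to 12.74 over 116 rows, 30 of them at 0 in every library. The Grueneberg ganglion markers Gucy2g and Vmn2r83 summed to at most 0.138. Mex3a stood at 88.07 to 117.8 scaled TPM in the 4 WT libraries and at 10.87 to 21.07 in the 4 cKO libraries. The library at 117.8, WT early replicate 2, is tagged with the cKO genotype although its title says WT, and was kept as WT.

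Levels of the 5 genes spanned more than 2 orders of magnitude. Over all 8 libraries the mean deposited TPM was 130.2 for Car2, 15.17 for Pde2a, 3.39 for Gucy1b2, 2.12 for Gucy2d and 0.632 for Cnga3. Within WT the order was the same and the 4 libraries of each gene did not overlap with those of its neighbours in the order. In cKO, Gucy1b2 (0.714 to 1.28 scaled TPM) overlapped with Gucy2d (1.20 to 2.66) above it and with Cnga3 (0.190 to 0.770) below it. Car2 rested on 700 to 1252 inferred reads per library, Pde2a on 211 to 396, Gucy2d on 18 to 55, Gucy1b2 on 6 to 91 and Cnga3 on 3 to 21, so the last 3 carry the larger counting error.

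**Figure D1:**
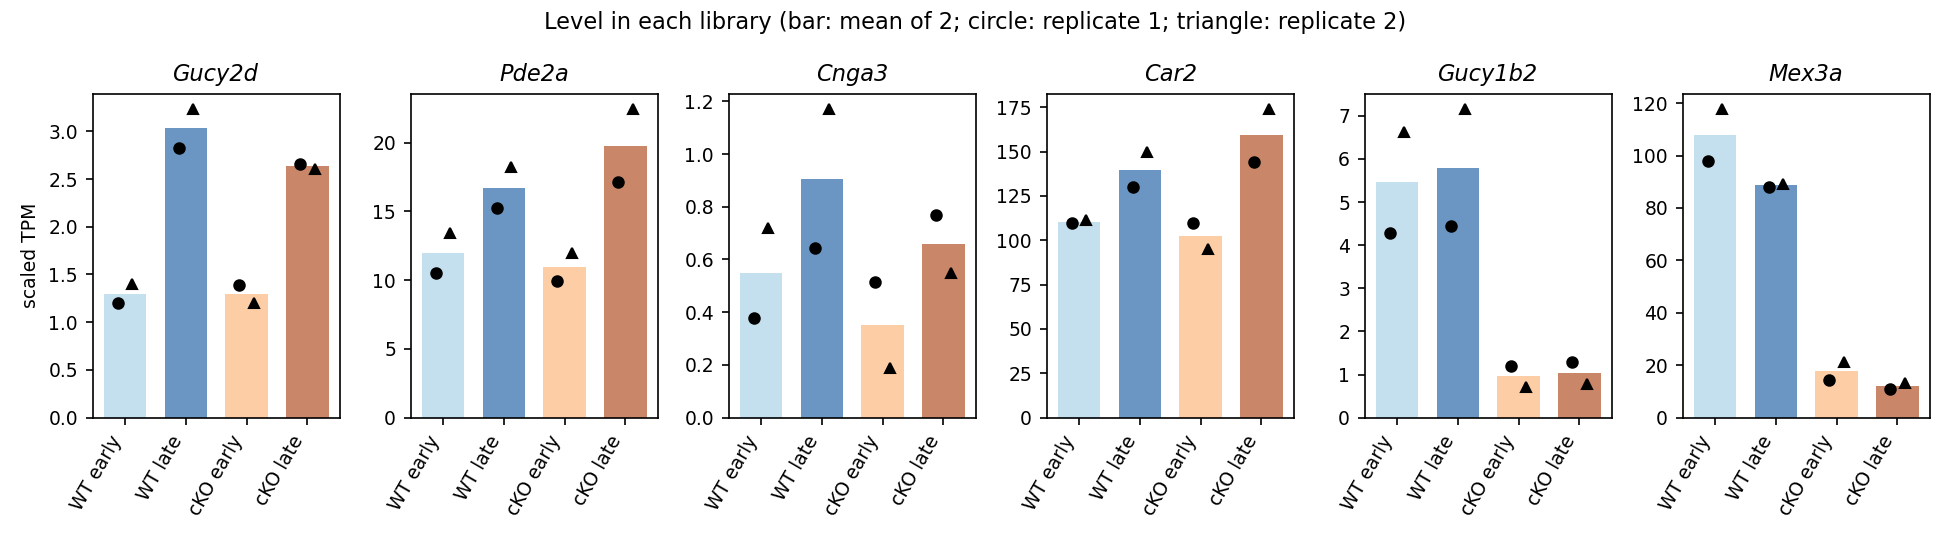
Scaled TPM (vertical axis, from 0, a separate scale for each gene) of the 5 genes and Mex3a in the 4 groups. Bars are means of 2 libraries, circles replicate 1 and triangles replicate 2. Gucy2d, Pde2a and Car2 are higher in late than in early libraries, and Gucy1b2 is lower in the 4 cKO libraries (0.714 to 1.28) than in the 4 WT libraries (4.27 to 7.16).

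Late and early polysomes were compared to place each transcript on the gradient. Gucy2d, Pde2a and Car2 were each higher in late polysomes on average over genotypes, by 0.74, 0.62 and 0.48 log2. Gucy1b2 differed between the fractions by 0.060 log2 and was not called. So 3 of 4 tested genes passed an adjusted p of 0.05, all 3 higher in late polysomes, where 68.9% of 16097 genes passed in either direction and 34.3% passed with a higher late level. The median of all tested genes was -0.011 log2. The 4 late libraries lay above the 4 early ones for Gucy2d, Pde2a and Car2, as they did for 31.5% of tested genes. With a background this high, a call here is common and does not set a gene apart. It says that the gene's share was larger in the late than in the early pool, relative to the median gene.

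Gucy2d, the receptor cyclase, had 1.20 and 1.40 scaled TPM in WT early and 2.83 and 3.24 in WT late libraries (replicates 1 and 2). In cKO it had 1.39 and 1.20 in early and 2.66 and 2.61 in late libraries. Every late library was above every early library. The genotypes overlapped in early polysomes, and in late polysomes both WT libraries were above both cKO libraries. The late level was 2.36 and 2.31 times the early level in the WT lysates and 1.92 and 2.17 times in the cKO lysates. On average the difference was 0.74 log2 (SE 0.15, 95% interval 0.39 to 1.09, adjusted p = 0.00259 by limma). It was 0.81 in WT (adjusted p = 0.0131) and 0.67 in cKO (adjusted p = 0.0279). These values are on the log2(scaled TPM + 1) scale, which understates changes of low genes. With a pseudocount of 0.1 the average was 1.07 log2, and in the test on whole reads 1.11. The WT call was lost without WT early replicate 1 (adjusted p = 0.0562) or WT late replicate 2 (0.0756). The cKO call was lost without any 1 of the 4 cKO libraries (0.0602 to 0.114) and in a fit of the cKO libraries alone (0.0512).

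Pde2a, the phosphodiesterase, had 10.54 and 13.43 scaled TPM in WT early and 15.22 and 18.24 in WT late libraries. In cKO it had 9.95 and 12.01 in early and 17.11 and 22.46 in late libraries. Replicate 2 was above replicate 1 in each of the 4 groups, and all late libraries were above all early ones. The average difference between fractions was 0.62 log2 (SE 0.13, adjusted p = 0.00282 by limma). In cKO it was 0.79 (adjusted p = 0.00665), a call lost without cKO late replicate 2 (0.60, adjusted p = 0.0507). In WT it was 0.45 (adjusted p = 0.0671) and was not called, although it passed with TPM as deposited (adjusted p = 0.0347), with the lysate as a block (0.0236) and on whole reads (0.0265). The genotypes were not shown to differ in this, since the interaction was 0.34 log2 (SE 0.26, adjusted p = 1.00).

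Car2, the carbonic anhydrase, had 109.7 and 111.2 scaled TPM in WT early and 130.0 and 149.5 in WT late libraries. In cKO it had 109.9 and 94.81 in early and 144.3 and 174.0 in late libraries. The 4 late libraries were above the 4 early ones, and the largest gap, 1.84 times, was in cKO lysate 2. The average difference was 0.48 log2 (SE 0.090, adjusted p = 0.00145 by limma), with 0.63 in cKO (adjusted p = 0.00318) and 0.33 in WT (adjusted p = 0.0531). The WT value was not called, and passed in 7 of 18 alternatives, TPM as deposited (0.0258) and quantile normalization (0.0307) among them. The interaction was 0.30 log2 (SE 0.18, adjusted p = 1.00). Within WT, 1 of the 4 tested genes (Gucy2d) was called, as higher, where 54.8% of all tested genes were called, with 27.1% higher. Within cKO 3 were called, all higher, where 58.1% of all were called and 28.9% were higher.

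Car2 is also made by other cells of nasal tissue and blood, as background knowledge has it, and some of their markers moved with the fraction. Osteoclast markers (5 genes) summed to 970.6 to 1138 scaled TPM in early and 1719 to 2165 in late libraries. Sustentacular cell markers (5 genes) summed to 2411 to 3790 in early and 7968 to 9017 in late libraries. Endothelial markers (8 genes) summed to 120.5 to 154.7 in early and 172.4 to 195.4 in late libraries. Of the tested genes of these lists 3 of 4, 5 of 5 and 6 of 8 passed as higher in late polysomes and 0 as lower. Among all tested genes 34.3% passed as higher and 68.9% in either direction, the background for each list in this paragraph. Erythroid markers (4 rows) gave means of 67.31 in WT early, then 68.47 in WT late, with 92.39 and 95.95 in cKO, and 0 of 4 passed as higher and 1 as lower. Macrophage markers (6 genes) gave means of 202.4 and 212.8 in WT, with 1 of 6 higher and 2 lower. None of the markers in these 5 lists was at 0 in every library. Their part in the Car2 level was not tested.

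Cnga3, the cGMP-gated channel subunit, lay below the filter and is described on 81 inferred reads in all. In WT it had 0.379 and 0.719 scaled TPM in early libraries, followed by 0.642 and 1.17 in late ones. In cKO the early libraries had 0.514 and 0.190, and the late libraries 0.770 and 0.550. The late value was above the early value in each of the 4 lysates, as for 38.2% of tested genes, but early and late libraries overlapped. In the fit without a filter the difference was 0.30 log2 (SE 0.15, 95% interval -0.056 to 0.65, adjusted p = 0.139), and a difference was not detectable at this depth. The cone photoreceptor markers, another site of Cnga3 in the mouse, summed to 0.884 to 2.43 scaled TPM over 5 rows, none of them at 0 in every library, and their part was not tested.

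Gucy1b2 gave the smallest fraction difference of the 5 genes. The late level was 1.04 and 1.08 times the early level in WT lysates and 1.06 and 1.09 times in cKO lysates. The difference was 0.060 log2 on average (SE 0.21, 95% interval -0.43 to 0.55, adjusted p = 0.814), 0.071 in WT and 0.050 in cKO. This interval includes the 0.48 of Car2 and does not reach the 0.62 of Pde2a or the 0.74 of Gucy2d, and the difference between genes was not tested. The fit that gave the interval did not pair the fractions by lysate, so its width includes the spread between lysates. Within lysates the differences were 0.046 and 0.096 log2 in WT and 0.048 and 0.051 in cKO.

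**Figure D2:**
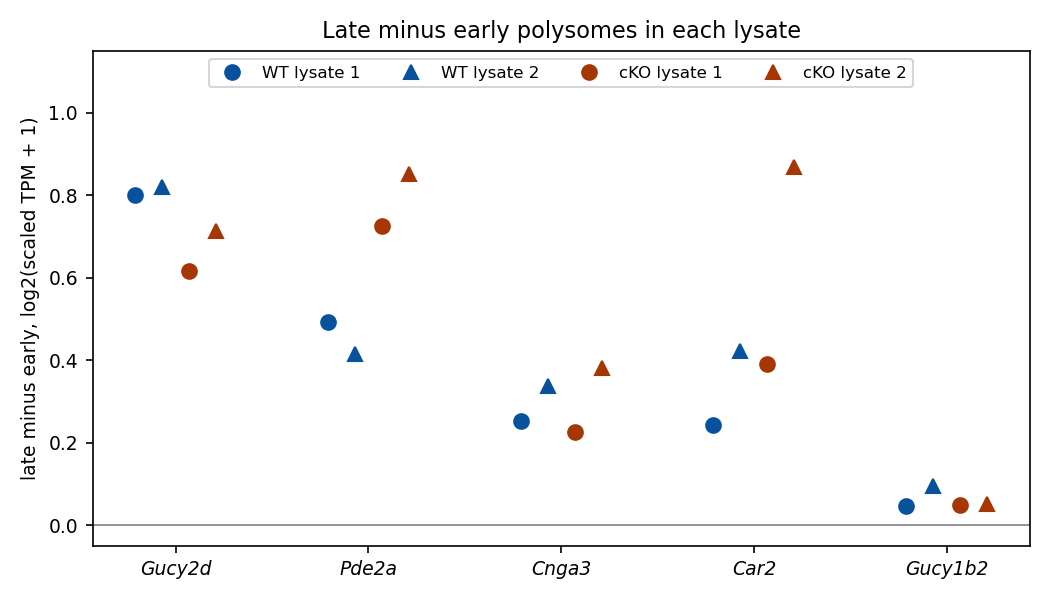
Difference of late and early polysomes in log2(scaled TPM + 1) (vertical axis) for each of the 5 genes, with 1 point per lysate (blue WT, brown cKO; circle lysate 1, triangle lysate 2). All points are above 0. Those of Gucy2d lie between 0.62 and 0.82 and those of Gucy1b2 between 0.046 and 0.096.

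The fraction differences were set beside coding length, since long reading frames hold more ribosomes. Gucy2d has a coding sequence of 3354 nt (1117 amino acids), Pde2a 2808 nt (935), Gucy1b2 2475 nt (824), Cnga3 1896 nt (631) and Car2 783 nt (260). Tested genes with a known coding length were divided into 10 bins of 1467 or 1468. Gucy2d fell in the bin of the longest genes, with a median late-minus-early difference of 0.50 log2 and quartiles of 0.27 and 0.73, and 75.8% of that bin lay below it. Pde2a lay above 64.4% of its bin (median 0.45), inside the quartiles of 0.12 and 0.74. Car2 is short, and its bin had a median of -0.26 with quartiles of -0.62 and 0.13. Its 0.48 was above 89.0% of that bin. Gucy1b2, in the same bin as Pde2a, was above 21.0% of it. These positions are descriptions and carry no test. They use the log2(scaled TPM + 1) scale, which understates changes of low genes such as Gucy2d (1.07 log2 with a pseudocount of 0.1). The bins were not drawn up for other pseudocounts.

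**Figure D3:**
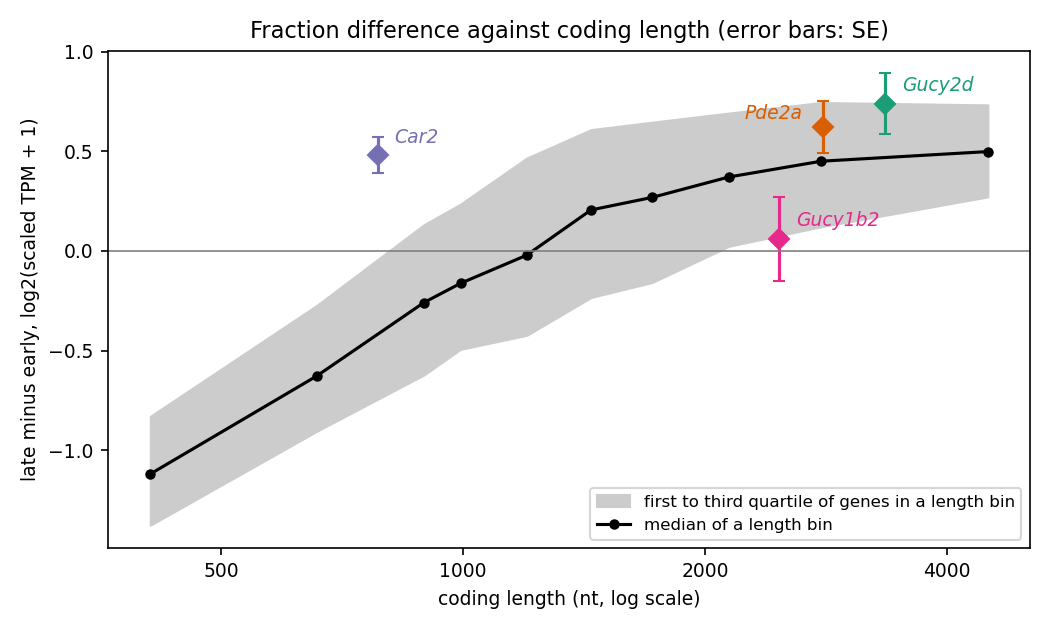
Late-minus-early difference in log2(scaled TPM + 1) (vertical axis) against coding length in nt (log scale). The line joins the medians of 10 length bins and the band spans their lower to upper quartile. Diamonds are the 4 tested genes with SE. Car2 (0.48) lies above the band of its bin, and Gucy1b2 (0.060) lies below the lower quartile (0.12) of its own.

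The genotype comparison asked which transcripts on polysomes differ when Mex3a is lost. Of the 4 tested genes, 0 passed an adjusted p of 0.05 in early polysomes, late polysomes or on lysate means (the mean of the early and late log2 values of a lysate) by limma. Over all genes 0.0435%, 0.0124% and 0.00621% passed in these comparisons. At an unadjusted p under 0.05, 1 of the 4 (Gucy1b2) stood in each, as did 1071, 1506 and 1823 of all tested genes. A test on inferred whole reads with voom also called 0 of the 4.

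Gucy1b2 had the largest genotype difference among these genes. It had 4.27 and 6.63 scaled TPM in WT early and 4.44 and 7.16 in WT late libraries. In cKO it had 1.21 and 0.714 in early and 1.28 and 0.775 in late libraries. All 4 cKO libraries were below all 4 WT libraries, which was so for 1.28% of tested genes. In WT, replicate 2 was the higher in both fractions, and in cKO replicate 1 was. These levels rested on 286 inferred reads summed over the WT libraries (54 to 91 each) and 42 over the cKO libraries (6 to 15 each).

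Early libraries averaged 5.45 ± 1.67 scaled TPM of Gucy1b2 in WT against 0.961 ± 0.350 in cKO (SD, n = 2 each), which is 17.63% of the WT level. Late libraries averaged 5.80 ± 1.92 in WT against 1.03 ± 0.359 in cKO (SD, n = 2 each), or 17.75%. On the log2(scaled TPM + 1) scale limma gave a difference of -1.71 for early polysomes (SE 0.30, adjusted p = 0.231) and of -1.73 for late ones (SE 0.30, adjusted p = 0.215). The lysate means differed by -1.72 (SE 0.25, 95% interval -2.33 to -1.10, unadjusted p = 0.000502, adjusted p = 0.196 by limma). Its interaction of genotype and fraction was -0.022 (SE 0.43, adjusted p = 1.00).

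By size, Gucy1b2 ranked 26 of 16097 genes from the most negative difference in early polysomes, 28 in late polysomes and 16 for lysate means, and by p it ranked 27, 28 and 37. It was called in none of the alternatives run. On lysate means its value ranged from -2.47 to -1.44 log2 and its adjusted p from 0.0513 to 0.404. The lowest adjusted p came from voom on whole reads (-2.47), where no pseudocount of 1 compresses the cKO values, and the next from a block on the replicate number (-1.72, adjusted p = 0.0540). An exact permutation test of 2 lysates against 2 cannot give a p below 0.333. The mean deposited level in cKO was 0.989 TPM, so the gene passed the filter of 1 through its WT libraries, and fewer type B cells and less Gucy1b2 RNA per cell cannot be told apart in bulk tissue.

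The tested genes nearest to Gucy1b2 on chromosome 14 gave smaller estimates, with SEs of 0.068 (Wdfy2) to 0.24 (Dleu7) except for Mir15a. Mir15a had an SE of 0.75, too wide to set its value apart from that of Gucy1b2. The 3 nearest tested genes on either side were Dleu7, Rnaseh2b and Mir15a towards smaller coordinates and Fam124a, Ints6 and Wdfy2 towards larger ones. Their differences on lysate means were between -0.19 (Fam124a) and 0.17 log2 (Rnaseh2b), and 0 of the 6 were called by limma, with 1 at an unadjusted p under 0.05 (Rnaseh2b, adjusted p = 0.439).

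The 4 genes listed for guanylyl cyclase D neurons gave smaller genotype differences on lysate means. Which cells of the bulk tissue their RNA came from was not tested, so these values do not measure the neurons alone. Gucy2d differed by -0.076 log2 (SE 0.17, 95% interval -0.50 to 0.35, adjusted p = 0.894). For Pde2a the value was 0.055 (SE 0.15, interval -0.32 to 0.43, adjusted p = 0.914). For Car2 it was 0.035 (SE 0.070, interval -0.14 to 0.21, adjusted p = 0.872), the narrowest interval of the set. Cnga3, in the fit without a filter, gave -0.19 (SE 0.18, interval -0.66 to 0.27, adjusted p = 0.738). WT and cKO libraries overlapped for each of these 4 genes. The interval of Gucy1b2 does not overlap with that of any of these 4 genes, but the difference between genes was not tested. Cnga3 averaged 0.728 scaled TPM in WT. On the log2(scaled TPM + 1) scale even its full loss could not reach the value of Gucy1b2. Its mean in cKO was 64.11% of WT in early and 72.8% in late libraries.

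Within fractions, Gucy2d differed between genotypes by -0.0034 log2 in early (interval -0.50 to 0.49) and -0.15 in late polysomes (interval -0.64 to 0.35). Pde2a gave -0.11 in early and 0.22 in late polysomes, and Car2 -0.11 and 0.18. None of these was called (adjusted p = 0.675 to 0.998 by limma). The interaction was called for 0 of the 4 tested genes by limma and by voom, with 0 at an unadjusted p under 0.05, while 0.00621% of all genes were called.

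Marker sums of several cell types also lay apart between the genotypes, while 0 of 56 tested genes of the 13 marker lists were called in early polysomes, in late polysomes or for lysate means by limma (4, 9 and 9 at an unadjusted p under 0.05). Sums that lie apart are descriptions, since an exact permutation test of 2 lysates against 2 cannot give a p below 0.333. How often sums of other genes lie apart in this way was not counted. Voom on whole reads called 0, 0 and 1, the macrophage marker Lyz2, named after its value was seen. Immature neuron markers (6 genes) summed to 2323 to 2335 scaled TPM in WT and 2138 to 2154 in cKO for early libraries, and to 2775 to 2940 and 2504 to 2529 for late ones. Mature neuron markers (10 genes) overlapped in early libraries and summed to 8316 to 8754 in WT and 7269 to 8252 in cKO late libraries.

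Other lists had higher sums in cKO. Macrophage markers summed to 185.1 to 219.7 in WT and 263.9 to 267.6 in cKO libraries, and erythroid markers to 61.13 to 73.48 and 89.55 to 102.4. Such sums weigh abundant genes most. Among macrophage markers Lyz2 differed most on lysate means (0.62 log2), and the others by 0.11 (Cd68) to 0.28 (C1qa). Microvillous and ionocyte-like cell markers (6 genes) summed to 59.61 to 71.19 in WT and 75.44 to 82.12 in cKO early libraries, then to 86.85 to 91.69 and 111.8 to 121.5 in late ones. Of these, Avil differed by -0.038 log2 on lysate means and the others tested by 0.19 (Cftr) to 0.37 (Ascl3). In late libraries alone, cKO sums were also higher for sustentacular (7968 to 7970 and 8548 to 9017), osteoclast (1719 to 1866 and 1963 to 2165) and endothelial markers (172.4 to 175.0 and 195.1 to 195.4). The tested genes of these lists had median differences of 0.11, 0.14 and 0.079 log2 in late polysomes. On lysate means the medians were -0.0088, 0.087 and 0.025. Vomeronasal receptor genes summed to 7.28 to 9.27 in WT and 10.81 to 12.74 in cKO early libraries, without overlap, and to 6.79 to 7.56 and 6.45 to 8.63 in late ones, with overlap. B cell (5 genes) and mast cell markers (4 genes) summed to 9.04 to 18.81 and 1.78 to 3.69 over all libraries. Apart from 30 vomeronasal rows, no gene of these lists was at 0 in every library. The part of these cell types in the Gucy1b2 and Car2 values was not tested.

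**Figure D4:**
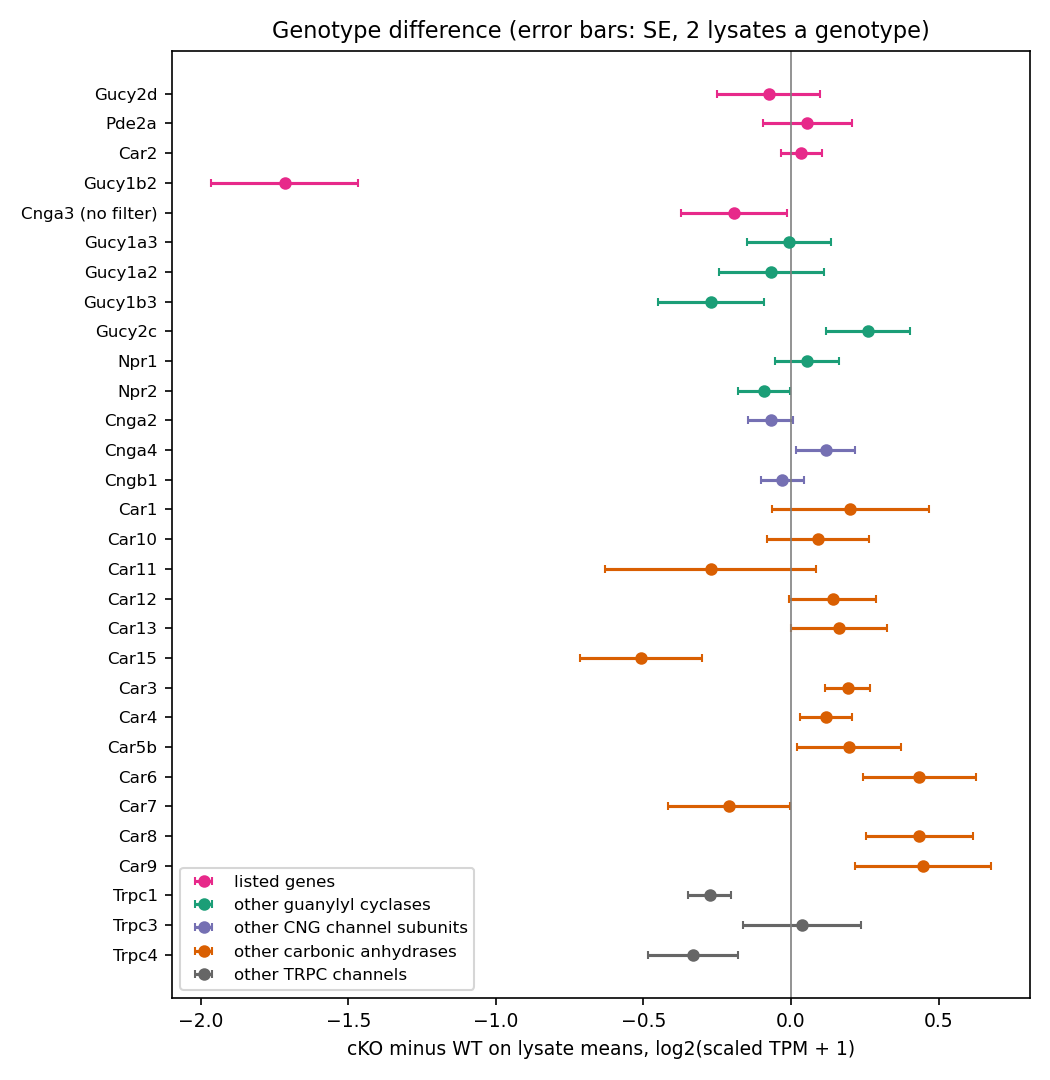
Difference of cKO and WT on lysate means in log2(scaled TPM + 1) (horizontal axis), with SE, for the 5 genes described and the tested members of 4 related families. Gucy1b2 lies at -1.72, and Gucy2d, Pde2a, Car2 and Cnga3 lie between -0.19 and 0.055.

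MEX-3 proteins are known to bind a short sequence in RNA, the MEX-3 recognition element, defined for the worm protein. Its matches in the annotated 3′ UTRs of these genes are shown because the study deletes Mex3a. Only the sense strand was searched, from the first base after the stop codon. Pde2a had 2 matches in 953 nt and Car2 had 4 in 680 nt. Bases of the match are in capitals.
Pde2a, bases 448 to 457: cgagcAGAGGATATAaaaca
Pde2a, bases 931 to 944: gtacaTGAGAATAAATCTAtttct
Car2, bases 104 to 115: gtattGTAGACCTTTTAcctct
Car2, bases 596 to 603: gatacAGAGTATAtttcc
Car2, bases 647 to 655: gtattTTAGATATAttctc
Car2, bases 670 to 680: aaaatTGAGAACTCTA
The element is degenerate, and 84.8% of stretches as long as the Pde2a 3′ UTR, taken from the start of the 3′ UTRs of tested genes, held at least 1 match. For the Car2 length the share was 74.1%. The mean number of matches in such stretches was 2.56 for the Pde2a length and 1.77 for the Car2 length, and no test was made. Gucy1b2 had 0 matches in 145 nt (21.9% of stretches of that length held one), Gucy2d 0 in 187 nt (28.4%) and Cnga3 0 in 1288 nt (92.6%). A match is a description of sequence and not a binding site, and 0 matches say only that these letters are not in the annotated window.

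The other guanylyl cyclases were higher in late polysomes where they changed. Of 9 genes, 6 were tested, 4 passed as higher and 0 as lower, and the median was 0.66 log2 against -0.011 for all genes, of which 68.9% were called and 34.3% as higher. They were Npr1, a natriuretic peptide receptor (5.85 ± 0.378 scaled TPM in WT early and 11.84 ± 0.575 in WT late libraries, SD, n = 2 each; 0.90 log2), the soluble cyclase subunits Gucy1b3 (0.85) and Gucy1a3 (0.73), and the natriuretic peptide receptor Npr2 (0.59). Gucy1b3, the common beta subunit of soluble guanylyl cyclase, differed between genotypes by -0.27 log2 on lysate means, in the plot of genotype differences, and did not pass. Of the 6, 0 were called between genotypes and 0 had an unadjusted p under 0.05, with a median of -0.037.

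The other channel subunits behaved likewise between the fractions. All 3 tested subunits of the cAMP-gated channel of canonical neurons were higher in late polysomes, Cnga4 by 1.32 log2, Cngb1 by 0.63 and Cnga2 by 0.20 (adjusted p = 2.28e-05, 0.00017 and 0.0365 by limma), where 34.3% of all tested genes were. Cnga2 stood at 397.0 to 514.6 scaled TPM and Cnga3 at 0.190 to 1.17. Of the other TRPC channels, 1 of 3 tested passed as higher, Trpc1 (0.52 log2), a count that was 2 on whole reads, without the mean-variance trend or without WT late replicate 2. Prkg1, a cGMP-dependent kinase and the 1 tested of 2, passed as higher (0.82), again beside 34.3% of all genes. Between genotypes 0 of these 7 genes were called, with Trpc1 at an unadjusted p under 0.05 (-0.28 log2, adjusted p = 0.367 by limma).

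Phosphodiesterases were divided. Of 17 tested, 4 passed as higher and 4 as lower in late polysomes, where 68.9% of all tested genes passed in either direction, and the median was 0.044 log2. The 4 with the largest differences were Pde6d (-1.19), a prenyl-binding protein despite its name, Pde11a (1.17), Pde1c, which degrades cAMP in canonical olfactory cilia (0.72), and Pde1a (-0.71). Of 13 tested carbonic anhydrases other than Car2, 5 passed as higher and 1 as lower, beside the same 68.9% in either direction and 34.3% higher among all genes, with a median of -0.098. The secreted enzyme Car6 (1.26), the membrane-bound Car12 (1.11) and the mitochondrial Car5b (0.99) were higher, and the catalytically inactive Car8 (-0.89) was lower. Between genotypes 0 of the 17 and 0 of the 13 were called on lysate means, with 2 and 1 at an unadjusted p under 0.05 and medians of -0.057 and 0.16.

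Guanylyl cyclase D neurons are also known for MS4A proteins, which act as chemoreceptors in their endings. Of 15 rows, 12 were above 0 in any library and 5 were tested. Of these, 2 passed as lower in late polysomes, Ms4a6c (-0.85 log2) and Ms4a7 (-0.78), and 0 as higher, with a median of -0.076, while 68.9% of all tested genes passed in either direction. The count was 1 without WT early replicate 2, either WT late library or cKO early replicate 2. Ms4a7 and Ms4a1 are known from macrophages and B cells, so these rows are no measure of the neurons alone. Of the ligands and calcium sensors, Guca2a (guanylin) was at 0 in 7 of 8 libraries, and the calcium sensor Ncald, neurocalcin delta, was lower in late polysomes (34.17 to 57.39 scaled TPM over all libraries; -0.51 log2, adjusted p = 0.000427 by limma). Hpca and Guca1a were tested and not called. Between genotypes 0 of the 5 MS4A genes and 0 of the 3 ligand and sensor genes were called, with 0 at an unadjusted p under 0.05.

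The canonical transduction list, which shares Cnga2, Cnga4, Cngb1, Pde1c and Pde4a with the families above, had 12 tested genes. In late polysomes 9 passed as higher and 2 as lower, with a median of 0.56 log2, beside 68.9% of all genes called and 34.3% as higher. Adcy3, the type III adenylyl cyclase (1.58), Cnga4 (1.32) and the calcium-activated chloride channel Ano2 (1.23) were higher, and the G protein subunit Gng13 (-1.73) was lower. The differences of Gucy2d (0.74) and Pde2a (0.62) lie within this range. So do the quartiles of every length bin of all genes, so this does not mark a likeness to the list. Between genotypes 0 of 12 were called, with 1 at an unadjusted p under 0.05 and a median of -0.059. In these 9 lists together, the test on whole reads also called 0 genes between genotypes on lysate means.

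Genes of like pattern were found by Pearson's r of log2(scaled TPM + 1) over the 8 libraries among 12260 genes with a mean of at least 5 TPM (12259 for Pde2a and Car2, which are among them). All genes share the same libraries and the same split into fractions and genotypes, so r describes likeness only. For Gucy2d the 3 nearest were Gadl1 (r = 0.996), Maats1 (0.996) and Slc17a6 (0.995), and 2953 genes reached 0.9. For Pde2a they were Pim1 (0.991), Ctif (0.988) and Cap2 (0.983), with 522 genes at 0.9. For Car2, Lancl1 (0.989) and Dtl (0.989) are given, with 1733 genes. For Gucy1b2 they were Olfr726 (0.976), Ric8b (0.947) and Cnksr2 (0.946), and only 14 genes reached 0.9, of which Mex3a was the seventh (0.935). Mex3a is the deleted gene, so any gene lower in the cKO libraries has a high r with it through the genotype split. In WT both genes were higher in replicate 2 in each fraction. In cKO, Gucy1b2 was higher in replicate 1 and Mex3a in replicate 2.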

How the data were processed

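The authors deposited TPM values (transcripts per 1000000) in 1 table of 21765 genes for 8 polysome libraries. Per the submitters' processing notes, mm10, FastQC, cutadapt, STAR and DESeq2 were used. The counting method and annotation are not given in the sources used here, nor is the strand setting, and the libraries came from a stranded total RNA kit per the labels' protocols. Low values were whole multiples of a step, which gave whole reads for 100% of 19783 genes above 0 in at least 2 libraries (tolerance 0.001). Intervals cover the spread between libraries.

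Groups came from sample titles. TPM was scaled by median ratios, and log2(scaled TPM + 1) of 16097 genes with a mean TPM of at least 1 went into limma 3.58.1 (R 4.3.3). The 4 groups were fitted together with a mean-variance trend, and genotype was also tested on lysate means. P-values were two-sided and Benjamini-Hochberg adjusted over all tested genes, with a threshold of 0.05. The test was checked on simulated data in which only genes with a mean TPM of at least 5 were changed. That check does not cover changes of Gucy2d or Gucy1b2, whose means lie below this level. Alternatives were pseudocounts of 0.1 and 0.5, no filter, a mean TPM of at least 5, no scaling, quantile normalization, no trend, replicate blocks, fewer libraries, and voom on the inferred reads.

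The genes, the 9 pathway lists and the 13 marker lists were chosen with earlier results of these data known. From each list up to 4 called genes were named by size, otherwise the 2 most abundant. For each tested gene the 3 genes of most like pattern were named, of which 1 is not reported here. Annotation and sequences came from GENCODE on GRCm38. Early and late libraries of a number share a lysate name, so that numbers pair fractions; across genes, r of their deviations from group means was 0.0863 for WT and 0.0502 for cKO. Figures were drawn with matplotlib 3.10.9.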

Additional observations from a re-analysis of the deposited data

How the results depend on the processing

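The count of genes called higher in late polysomes, on average over genotypes 3 of 4, was 3 wherever all 4 were tested. A mean TPM of at least 5 removed Gucy2d and Gucy1b2 by construction. Within WT the count of 1 became 3 with TPM as deposited and with voom on whole reads, and 2 with quantile normalization, with a replicate block and when only the 4 libraries compared were fitted. It ranged from 0 to 2 when each library was left out, and the cKO count of 3 from 1 to 3. The cause was not tested, beyond fewer samples in the fits without a library.

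The replicate block on the lysate changed no other call among these genes. For genotype, WT and cKO libraries share only a number, and r of their deviations was 0.332 for early and 0.143 for late libraries. With the replicate block on that number 85 of 16097 genes were called on lysate means, where 1 was without it and 58 were with voom, and 0 of the 4 in each. In early polysomes the all-gene count of 7 became 12 with voom, 11 with no filter, 4 with a mean TPM of at least 5 and 0 in the fit of only 4 libraries (1043 unadjusted), and in late polysomes 2 became 15, 4, 1 and 1. For the interaction, 1 gene became 6 with no filter, 2 with no trend and 0 with voom (396 unadjusted). Leaving out libraries or lysates gave 0 to 9 genes in early and 0 to 13 in late polysomes, 1 to 10 for lysate means and 1 to 7 for the interaction.

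Reversals concerned values near 0 that were never called. Leaving out libraries, Gucy1b2 between fractions ranged from -0.086 to 0.21 on average, -0.22 to 0.36 in WT and -0.13 to 0.23 in cKO, and its interaction from -0.31 to 0.27 (0.011 with a pseudocount of 0.1, 0.18 with quantile normalization, 0.042 with voom). In early polysomes the genotype difference of Gucy2d ranged from -0.067 to 0.060 (0.0040 with quantile normalization, 0.0035 with voom) and that of Pde2a from -0.27 to 0.049. On lysate means Pde2a ranged from -0.10 to 0.21 and Car2 from -0.020 to 0.090 (-0.012 with TPM as deposited). At 3 to 21 reads a library, depth limits Cnga3 most.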
